A study of Mus musculus with 14 samples.

Results

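Complex I of the respiratory chain was followed through the genes whose symbols begin with Nduf, in left ventricles of mice with or without Hspb8, before and after pressure overload. The members were the 88 probe sets of the array that carry a single annotated symbol of this kind, of 45101 probe sets in all. They stand for 44 genes, of which 36 carry subunit names and 8 encode assembly factors (Ndufaf1 to Ndufaf8). Of these probe sets, 82 passed a filter on dim values, and they covered 43 genes, 35 for subunits and 8 for assembly factors, among 12260 genes measured. Ndufb4 was the gene without a value, because its only probe set with a single symbol was dim in every group, with means of 4.28 in TAC KO, 4.31 in TAC WT, 4.60 in basal KO and 4.89 in basal WT.

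The ventricles came from male C57BL/6 mice. The knockout (KO) animals lacked Hsp22, the small heat shock protein that Hspb8 encodes, and the wild-type (WT) animals carried it. There were 4 arrays of KO and 4 of WT hearts at 3 days after constriction of the transverse aorta (TAC), which raises the load on the left ventricle, and 3 arrays of KO and 3 of WT hearts in the basal state. The basal mice had no surgery that the labels mention, and no sham-operated group was among the 14 arrays. The sources used here do not give age, the kind of deletion or whether each array was a separate animal, so p-values measure the spread between these samples, which may be technical. All values are deposited log2 expression values from Affymetrix Mouse430_2 arrays, where a step of 1 is a doubling of signal. The number of arrays limits the precision.

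Hspb8 followed the labels on the probe set that read it highest in WT hearts, with a mean of 4.74 ± 0.34 in TAC KO, against 11.52 ± 0.53 in TAC WT (SD, n = 4 each), and 4.83 ± 0.38 in basal KO, against 11.68 ± 0.36 in basal WT (SD, n = 3 each). Its other probe sets averaged 5.32 and 8.48 in TAC KO, against 10.61 and 9.07 in TAC WT, and 5.79 and 8.70 in basal KO, against 11.27 and 9.78 in basal WT. Array medians ran from 5.70 to 5.80. All 14 cardiomyocyte markers were measured, and the log2 of their summed level lay between 17.84 and 18.03 in TAC KO, 17.72 and 18.10 in TAC WT, 17.99 and 18.02 in basal KO and 18.00 and 18.02 in basal WT. By the names of the array files, TAC arrays were run later than basal arrays, so surgery and run cannot be told apart in any comparison of TAC with basal hearts. Basal KO 3 was on a different day from the other basal arrays.

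Complex I (NADH:ubiquinone oxidoreductase) takes electrons from NADH and passes them along a chain of iron-sulphur clusters to ubiquinone, and it uses the energy to pump protons out of the mitochondrial matrix. Its matrix arm holds the NADH site, the clusters and the quinone site, and its membrane arm holds the pumps. Core subunits carry the chemistry and are shared with bacteria, accessory subunits surround them, and assembly factors help to build the complex and then leave it. The heart muscle cell is packed with mitochondria, and its contraction depends on this supply of ATP.

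Many subunit probe sets were read near the top of the scale. Of the 35 probe sets that stand for subunit genes, 33 averaged above log2 11 over all arrays and 31 above log2 12. The highest value of any probe set on an array was between 14.64 and 14.81. How far that compresses their differences was not tested.

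After 3 days of TAC, part of the complex I subunit transcripts fell in KO hearts, and the others did not pass. Of the 35 subunit genes, 15 fell and 0 rose at an adjusted p under 0.05 (limma across 12260 genes, Benjamini-Hochberg adjusted, here and for every adjusted p below), which is 42.9% lower against 21.8% of all genes measured that were lower and 22.7% that were higher. The median subunit difference was -0.372 on the log2 scale, against -0.016 over all genes, and 33 of the 35 lay below 0 (6277 of all 12260 genes). In 25 of them (71.4%) every TAC KO array read below every basal KO array, against 26.7% of all genes, and in 1, Ndufb1, every TAC KO array read above, against 27.7%. The 35 include Ndufa4 and Ndufa4l2, which are no longer counted as complex I subunits. Without these, 14 of 33 fell (42.4%) and 0 rose, and 24 (72.7%) had every TAC KO array below every basal KO array. Among the assembly factors 2 of 8 fell and 0 rose, with a median of -0.011.

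In WT hearts fewer subunits passed. There 9 of 35 fell and 1 rose between TAC WT and basal WT, which is 25.7% lower against 23.8% of all genes lower and 26.9% higher, so the share of subunits that fell was close to that of genes at large. The median subunit difference was -0.287, against 0.018 over all genes, and 30 of 35 lay below 0 (5988 of all 12260 genes). Arrays did not overlap, with TAC WT below basal WT, in 12 subunits (34.3%), against 24.3% of all genes, and with TAC WT above basal WT in 0, against 25.5%. Without Ndufa4 and Ndufa4l2, 8 of 33 fell (24.2%) and 1 rose, and arrays did not overlap, with TAC WT below, in 10 (30.3%). Of the assembly factors, 1 rose and 1 fell, with a median of 0.184.

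Single arrays weigh on these counts. For KO hearts the number of Nduf genes past the threshold in either direction, 17 of 43 (44.5% of all genes passed), was 4, 7 and 5 without basal KO 1, 2 and 3, and 10, 11 and 5 without TAC KO 2, 3 and 4, while the median subunit difference stayed between -0.423 and -0.317. Of all 12260 genes, 5451 passed with every array, and 4091, 4121 and 4155 without basal KO 1, 2 and 3. Without TAC KO 2, 3 and 4, 4817, 4609 and 4259 of all genes passed. For WT hearts the number, 12 of 43 (50.7% of all genes), was 5 without basal WT 3, 6 without TAC WT 4 and 22 without TAC WT 1, and the median subunit difference was -0.15 without TAC WT 3. Of all genes, 6214 passed with every array, and 5042, 5273 and 6842 without basal WT 3, TAC WT 4 and TAC WT 1. When only the arrays compared were fitted, 22 Nduf genes passed in KO and 3 in WT, among 6113 and 4831 of all genes. With each array centred on its median, the 2 Nduf genes that rose and 10 that fell in WT became 5 and 6. Tested singly, 31 of the 82 kept probe sets fell and 1 rose in KO (20.7% lower and 23.5% higher over 21216 probe sets), and 26 fell and 5 rose in WT (22.1% lower and 28.3% higher). Of the 22 genes with over 1 kept probe set, 17 had all of them on the same side of 0 in KO and 13 in WT.

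**Figure D1:**
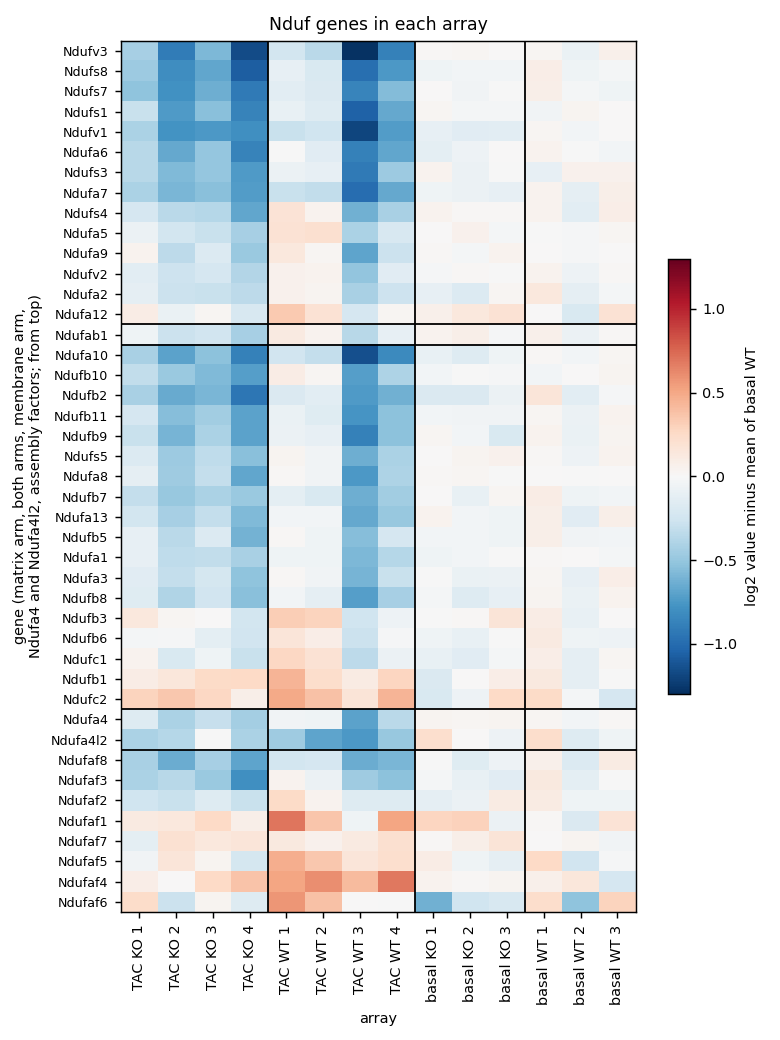
Each of the 43 measured Nduf genes (rows) in each of the 14 arrays (columns), coloured by its log2 value minus the mean of the basal WT arrays (blue below, red above). TAC KO arrays and TAC WT 3 and 4 are blue through most of the matrix and membrane arm rows, and TAC WT 1 and 2 are pale there. Most assembly factors at the bottom are red in TAC WT 1 and 2. Their median shift is 0.36, 0.21, -0.03 and 0.10 in TAC WT 1 to 4.

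The arrays of a group did not shift alike. Over the 35 subunits, the median shift from the basal WT mean was -0.17, -0.41, -0.31 and -0.54 in TAC KO 1 to 4, and -0.01, -0.05, -0.68 and -0.41 in TAC WT 1 to 4. It stayed between -0.03 and -0.01 in basal KO and between -0.06 and 0.04 in basal WT. TAC KO arrays thus all lay below both basal groups, whereas TAC WT 1 and 2 lay within their range and TAC WT 3 was the lowest array of all.

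The same arrays stood at the ends for nearly every subunit. TAC WT 3 was the lowest TAC WT array for 35 of 35 subunits and TAC WT 1 the highest for 32. In TAC KO, array 4 was the lowest for 32 and array 1 the highest for 31. In TAC WT 1, 13 subunits read below every basal WT array and 13 above every one, while in TAC WT 3 the numbers were 33 and 0. Between 26 and 33 subunits read below every basal KO array in each TAC KO array. The matching shares of all genes were not counted for single arrays, so these numbers only describe the subunits. Values of different subunits on an array are therefore not independent of each other.

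Markers of other cells also differed between these arrays. Over all genes, 22.7% rose and 21.8% fell in TAC KO against basal KO, and 26.9% rose and 23.8% fell in TAC WT against basal WT. Of 14 macrophage markers, 11 rose (78.6%) and 0 fell in KO, and 11 rose (78.6%) and 1 fell in WT. Their median shift from basal WT was 1.69, 1.58, 1.72 and 1.24 in TAC KO 1 to 4 and 0.39, 0.72, 2.08 and 0.77 in TAC WT 1 to 4. The log2 of their summed level lay between 14.10 and 14.42 in TAC KO, 13.30 and 14.93 in TAC WT, 13.16 and 13.32 in basal KO and 12.72 and 13.13 in basal WT. Of 10 fibroblast markers, 7 rose (70.0%) and 0 fell in KO, and 7 rose (70.0%) and 2 fell in WT. Of 14 cardiomyocyte markers, 0 rose and 1 fell in KO (median -0.056), and 1 rose and 0 fell in WT (median -0.066). Cardiomyocyte markers shifted by 0.02, -0.01, -0.11 and -0.17 in TAC KO 1 to 4 and by 0.09, 0.11, -0.32 and -0.12 in TAC WT 1 to 4. TAC WT 3, lowest for the subunits, was thus highest for macrophage and lowest for cardiomyocyte markers within its group, while TAC KO 4, lowest for the subunits in its group, was lowest for both. Of 10 endothelial markers, 4 fell and 0 rose in KO (median -0.389), and 5 fell and 0 rose in WT (median -0.33). Their summed level lay between 12.49 and 12.81 in TAC KO, 12.55 and 12.88 in TAC WT, 13.09 and 13.16 in basal KO and 13.05 and 13.13 in basal WT, so TAC arrays lay below basal ones in both genotypes. Of 7 atrial markers, 2 fell (28.6%, not far from the share of all genes) and 0 rose in KO (median -1.935). In WT, 4 fell (57.1%) and 0 rose (median -2.557). The log2 of the atrial sum lay between 14.06 and 14.79 in TAC KO, 13.80 and 14.68 in TAC WT, 12.98 and 15.49 in basal KO and 14.71 and 15.06 in basal WT, with basal KO arrays the most spread. The part of these markers in the subunit values was not tested, and in tissue RNA fewer muscle cells and less transcript in each cell cannot be told apart.

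**Figure D2:**
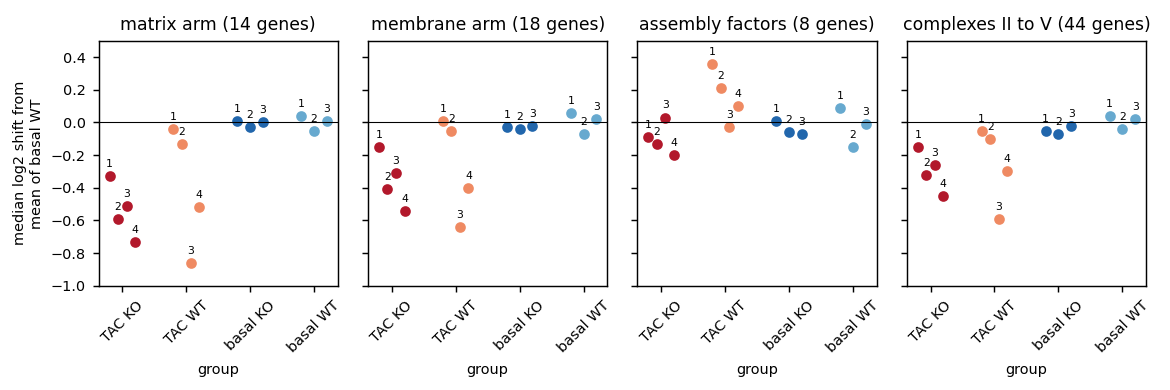
Median log2 shift from the basal WT mean (y axis) of 14 matrix arm, 18 membrane arm, 8 assembly factor and 44 complex II to V genes, with a point for each array, numbered by replicate, in TAC KO, TAC WT, basal KO and basal WT. In the matrix arm the TAC KO arrays lie between -0.73 and -0.33 and the TAC WT arrays between -0.86 and -0.04, while the basal arrays stay between -0.05 and 0.04.

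The matrix arm had larger median differences than the membrane arm. In TAC KO against basal KO, 8 of its 14 measured subunits fell (57.1%) and 0 rose, with a median of -0.51, while 6 of 18 membrane arm subunits fell (33.3%) and 0 rose, with a median of -0.322, where 21.8% of all genes fell. In TAC WT against basal WT, 5 of the 14 fell (35.7%), with a median of -0.41, and 3 of the 18 fell (16.7%) and 1 rose, with a median of -0.265, where 23.8% of all genes fell, so the membrane arm's share was below that of genes at large. Core subunits, all of them in the matrix arm here, had medians of -0.578 in KO and -0.463 in WT, and accessory subunits -0.288 in KO and -0.249 in WT. These medians describe the lists, and the difference between arms was not tested.

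Of the core subunits 6 were measured, and 5 of the 6 fell in TAC KO against basal KO: Ndufv1, Ndufs1, Ndufs3, Ndufs7 and Ndufs8. Ndufv2 was the exception. In TAC WT against basal WT 3 fell: Ndufv1, Ndufs7 and Ndufs8.

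Ndufs7, which carries the last iron-sulphur cluster before ubiquinone, read 12.65, 12.39, 12.54 and 12.25 in the TAC KO arrays, against 13.18, 13.13 and 13.17 in basal KO. It read 13.04, 12.99, 12.32 and 12.61 in TAC WT, against 13.25, 13.15 and 13.12 in basal WT. In both genotypes every TAC array lay below every basal array, by a wide margin in KO and a narrow one in TAC WT 1 and 2. The fall was -0.70 in KO (SE 0.157, adjusted p = 0.00375, 1.63-fold lower) and -0.43 in WT (SE 0.157, adjusted p = 0.0341, 1.35-fold lower). Both of its probe sets fell in both genotypes.

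Ndufs8 holds the clusters that lead up to that of Ndufs7. It read 13.04, 12.70, 12.83 and 12.44 in TAC KO, against 13.45, 13.47 and 13.47 in basal KO, and 13.40, 13.31, 12.53 and 12.76 in TAC WT, against 13.60, 13.45 and 13.48 in basal WT. No TAC array reached a basal one in either genotype, and the basal arrays differed little among themselves. Its difference was -0.71 in KO (SE 0.193, adjusted p = 0.0105) and -0.51 in WT (SE 0.193, adjusted p = 0.0408). All 6 of its probe sets fell in both genotypes.

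Ndufv1 binds the flavin that takes the electrons from NADH. It read 13.19, 12.83, 12.86 and 12.81 in TAC KO, against 13.50, 13.46 and 13.47 in basal KO, and 13.31, 13.34, 12.41 and 12.88 in TAC WT, against 13.63, 13.57 and 13.61 in basal WT. The groups did not overlap in either genotype. It fell by 0.55 on the log2 scale in KO (SE 0.185, adjusted p = 0.0276) and fell by 0.62 in WT (SE 0.185, adjusted p = 0.0144), on each of its 3 probe sets.

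Ndufs1, which carries several of the clusters near the NADH site, read 12.56, 12.12, 12.31 and 11.99 in TAC KO, against 12.88, 12.83 and 12.83 in basal KO. It read 12.76, 12.69, 11.80 and 12.19 in TAC WT, against 12.81, 12.89 and 12.86 in basal WT. The fall in KO was -0.60 (SE 0.200, adjusted p = 0.0267), and the difference in WT, -0.49 (SE 0.200, adjusted p = 0.0533), just missed the threshold although no arrays overlapped. Ndufs3, a subunit of the quinone module, read 12.62, 12.40, 12.47 and 12.24 in TAC KO, against 13.02, 12.90 and 12.97 in basal KO, and fell by 0.53 on the log2 scale (SE 0.172, adjusted p = 0.0240). In WT the arrays of Ndufs3 overlapped, with 12.90, 12.87, 12.06 and 12.50 in TAC WT, against 12.87, 13.03 and 13.03 in basal WT, and a difference of -0.39 (adjusted p = 0.0698).

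Ndufv2, the partner of Ndufv1 with a cluster of its own, moved less than its neighbours. It read 13.37, 13.23, 13.29 and 13.12 in TAC KO, against 13.49, 13.52 and 13.50 in basal KO, and 13.56, 13.55, 12.99 and 13.36 in TAC WT, against 13.55, 13.44 and 13.52 in basal WT. The KO arrays did not overlap but the difference of -0.25 did not pass (adjusted p = 0.120), nor did that of -0.14 in WT (adjusted p = 0.372). Its 3 probe sets were all below 0 in both genotypes and 0 of them passed.

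**Figure D3:**
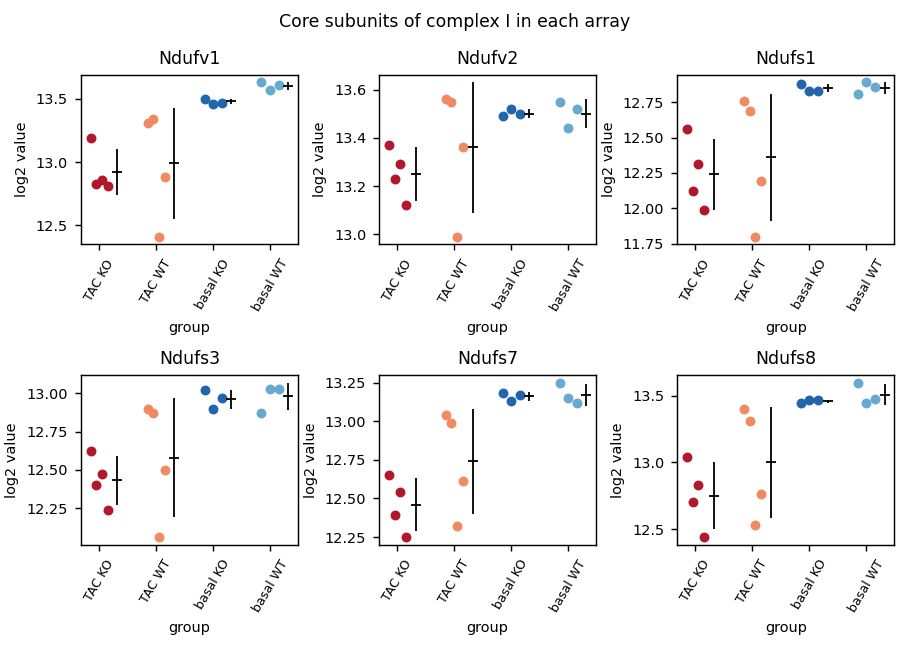
Deposited log2 values (y axis) of the 6 measured core subunits in each array, by group, with the mean and SD of the group beside the points. For Ndufv1, Ndufs1, Ndufs7 and Ndufs8 every TAC point lies below the basal points of its genotype, and the spread is widest in TAC WT, where arrays 1 and 2 lie high and arrays 3 and 4 low.

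Ndufv3, an accessory subunit of the matrix arm, had the largest difference of the 43 genes in both genotypes, on the probe sets that stand for genes. Some other kept probe sets fell further, among them the dimmer one of Ndufa10 in both genotypes. Ndufv3 sits beside the NADH site. It read 13.17, 12.70, 13.02 and 12.44 in TAC KO, against 13.62, 13.63 and 13.61 in basal KO, and 13.37, 13.26, 12.32 and 12.73 in TAC WT, against 13.63, 13.52 and 13.67 in basal WT. Basal arrays agreed within a narrow range and all TAC arrays lay below them. It fell by 0.79 on the log2 scale in KO (SE 0.225, adjusted p = 0.0137, 1.73-fold lower) and fell by 0.69 in WT (SE 0.225, adjusted p = 0.0221, 1.61-fold lower).

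Ndufa7, an accessory subunit of the matrix arm, read 12.77, 12.58, 12.63 and 12.45 in TAC KO, against 13.12, 13.10 and 13.07 in basal KO, and 12.89, 12.86, 12.19 and 12.51 in TAC WT, against 13.22, 13.06 and 13.25 in basal WT. It fell in both, by 0.49 in KO (SE 0.150, adjusted p = 0.0190) and fell by 0.56 in WT (SE 0.150, adjusted p = 0.00795) on the log2 scale. All 5 of its probe sets pointed down in both genotypes, though only 1 passed in KO and 3 in WT. Not every subunit of this arm moved: Ndufa12 differed by -0.17 in KO (adjusted p = 0.310) and by 0.08 in WT (adjusted p = 0.613), with arrays that overlapped.

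Ndufs4, an accessory subunit whose loss in mice causes a disease like Leigh syndrome, gave no single answer. Its brightest probe set read 11.51, 11.38, 11.36 and 11.05 in TAC KO, against 11.78, 11.75 and 11.75 in basal KO, a difference of -0.44 (adjusted p = 0.0559), and differed by -0.20 in WT (adjusted p = 0.340). Of its other kept probe sets, 1 was higher in TAC WT by 0.60 (adjusted p = 0.0169) and 1 was lower in TAC KO, at -0.87 (adjusted p = 0.0469, both over all probe sets). Its probe sets thus disagreed in sign within each genotype.

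In the membrane arm, Ndufa10, a subunit with the fold of a nucleoside kinase, read 13.09, 12.81, 12.97 and 12.63 in TAC KO, against 13.41, 13.34 and 13.45 in basal KO, and 13.26, 13.20, 12.36 and 12.68 in TAC WT, against 13.52, 13.47 and 13.53 in basal WT. No arrays overlapped. The fall was -0.53 in KO (SE 0.187, adjusted p = 0.0358) and -0.63 in WT (SE 0.187, adjusted p = 0.0135). Its dimmer probe set, with a mean of 8.79, was at -1.115 in KO and -0.73 in WT (adjusted p = 0.00263 and 0.0210 over all probe sets).

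Ndufb7 lies on the side of the membrane arm that faces the intermembrane space. It read 13.03, 12.84, 12.93 and 12.85 in TAC KO, against 13.34, 13.24 and 13.36 in basal KO, and 13.21, 13.14, 12.70 and 12.88 in TAC WT, against 13.43, 13.28 and 13.30 in basal WT. It fell by 0.40 in KO (SE 0.119, adjusted p = 0.0167) and fell by 0.35 in WT (SE 0.119, adjusted p = 0.0253) on the log2 scale, on both of its probe sets. The TAC arrays lay below the basal ones throughout.

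Ndufb10, its neighbour on that face, read 12.97, 12.80, 12.71 and 12.57 in TAC KO, against 13.25, 13.28 and 13.27 in basal KO, and fell by 0.50 on the log2 scale (SE 0.166, adjusted p = 0.0260). In WT it read 13.38, 13.31, 12.57 and 12.89 after TAC, against 13.25, 13.29 and 13.32 in basal hearts. TAC WT 1 was the highest of those 7 arrays and TAC WT 3 the lowest, and the difference of -0.25 did not pass (adjusted p = 0.220). Ndufa6, Ndufb11 and Ndufs5, picked out after their values were seen, also fell in TAC KO against basal KO, by 0.54, 0.44 and 0.41 on the log2 scale. They were at -0.43, -0.38 and -0.26 in WT, where none passed on the probe set that stands for the gene. Ndufb11 depended on the probe set, as 2 of its 3 passed in each genotype. Those that passed in WT were at -0.455 and -0.63 (adjusted p = 0.0375 and 0.0118 over all probe sets).

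Ndufb2 read 12.35, 12.11, 12.17 and 11.83 in TAC KO, against 12.58, 12.58 and 12.69 in basal KO, and 12.58, 12.63, 12.03 and 12.14 in TAC WT, against 12.92, 12.63 and 12.75 in basal WT. It fell by 0.50 in KO (SE 0.159, adjusted p = 0.0222) and fell by 0.42 in WT (SE 0.159, adjusted p = 0.0410) on the log2 scale. That call depends on the probe set: on the only kept one whose name lacks an s, x or a suffix, it was at -0.03 in KO and 0.06 in WT. That probe set is dim, with a mean of 5.89, and was above the filter's level in 11 of 14 arrays. A further bright one was at -0.46 in both genotypes (adjusted p = 0.0549 in KO and 0.04996 in WT over all probe sets).

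A few membrane arm subunits did not follow the rest. Ndufc2, a small subunit of that arm, read 13.05, 13.11, 13.03 and 12.84 in TAC KO, against 12.57, 12.70 and 13.02 in basal KO, and 13.26, 13.14, 12.93 and 13.21 in TAC WT, against 13.01, 12.74 and 12.54 in basal WT. It rose in WT by 0.37 (SE 0.138, adjusted p = 0.0383), with arrays that overlapped, and was at 0.24 in KO (adjusted p = 0.162). Its other kept probe sets were at 0.06 and -0.18 in WT. For Ndufb6 the brightest probe set was at -0.05 in KO and -0.01 in WT, whereas its other one rose by 0.30 in KO and by 0.52 in WT (adjusted p = 0.0386 and 0.00199 over all probe sets). Ndufb1, also singled out after its values were seen, was at 0.22 in KO (adjusted p = 0.106) and 0.27 in WT (adjusted p = 0.0526).

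Ndufab1, the mitochondrial acyl carrier protein that is found in both arms, was at -0.29 in KO (adjusted p = 0.0665) and -0.08 in WT (adjusted p = 0.608). Of its 4 kept probe sets 3 were below 0 in KO, and 1 of them, at -0.71, passed (adjusted p = 0.0285 over all probe sets).

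Ndufa4 and Ndufa4l2 bear the family name but are no longer counted as subunits of complex I. Ndufa4 is now known as part of cytochrome c oxidase. It read 13.28, 13.04, 13.15 and 13.00 in TAC KO, against 13.48, 13.47 and 13.48 in basal KO, and its difference of -0.36 just missed the threshold (adjusted p = 0.0507), while in WT it was at -0.29 (adjusted p = 0.0998). In both genotypes the TAC arrays of Ndufa4 lay below the basal ones.

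Ndufa4l2 is a relative that hypoxia induces and that lowers complex I activity in cultured cells. It read 8.79, 8.83, 9.19 and 8.79 in TAC KO, against 9.42, 9.21 and 9.13 in basal KO, and 8.74, 8.51, 8.45 and 8.71 in TAC WT, against 9.43, 9.03 and 9.14 in basal WT. It fell by 0.60 in WT on the log2 scale (SE 0.136, adjusted p = 0.00331, 1.51-fold lower), where no arrays overlapped, and fell by 0.35 in KO (SE 0.136, adjusted p = 0.0483), where TAC KO 3 reached into the basal range. Hif1a, the oxygen-regulated transcription factor, rose in both comparisons, by 1.61 in KO (adjusted p = 0.000318) and by 1.76 in WT (adjusted p = 0.000123).

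**Figure D4:**
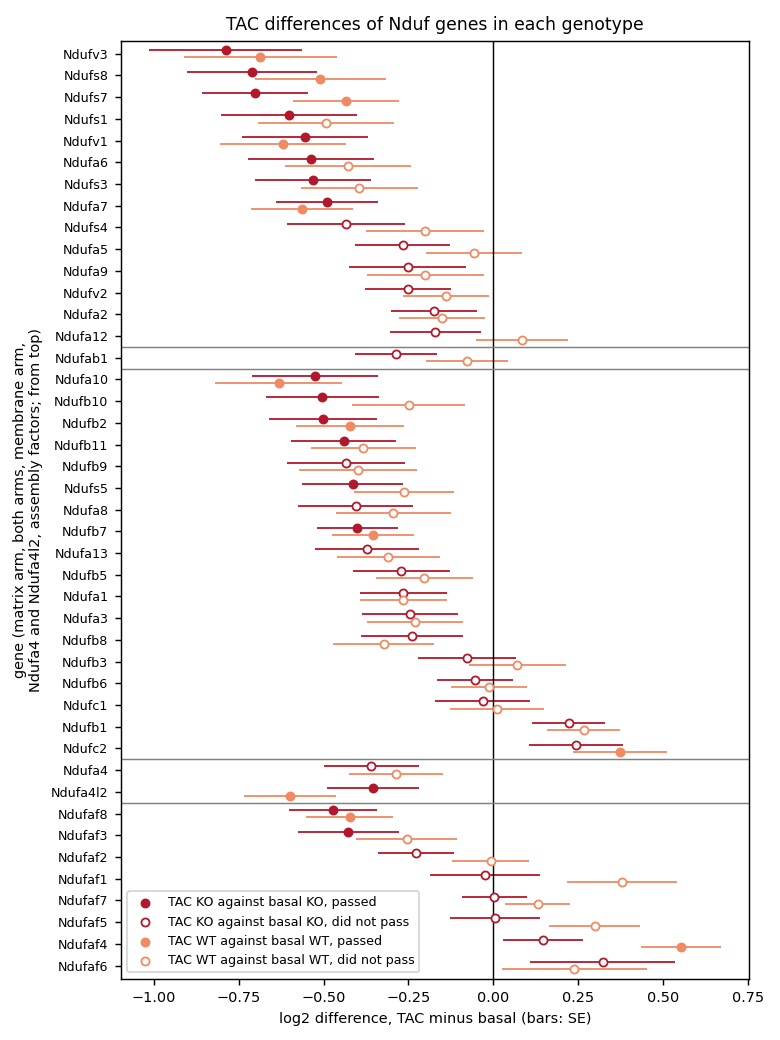
Log2 difference between TAC and basal hearts (x axis, bars are SE) for the 43 measured Nduf genes in KO (dark red) and WT (orange), grouped by place in the complex, with filled points past the adjusted p threshold of 0.05. Ndufv3 lies furthest left in both genotypes, at -0.79 in KO and -0.69 in WT, and Ndufaf4 is the furthest right of the filled points, at 0.55 in WT.

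Assembly factors were spread to both sides. Ndufaf4 binds Ndufaf3, and the pair joins the quinone module as it forms, as known from human cells. Ndufaf4 read 10.13, 10.05, 10.30 and 10.41 in TAC KO, against 10.09, 10.06 and 10.08 in basal KO, and 10.55, 10.64, 10.45 and 10.73 in TAC WT, against 10.11, 10.19 and 9.82 in basal WT. It rose in WT by 0.55 (SE 0.117, adjusted p = 0.00227, 1.47-fold), with every TAC WT array above every array of the other groups, and was at 0.15 in KO (SE 0.117, adjusted p = 0.320). Its second probe set agreed in WT, with a rise of 0.53, and was at -0.0017 in KO.

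Ndufaf3 went the other way. It read 9.45, 9.50, 9.38 and 9.07 in TAC KO, against 9.84, 9.77 and 9.72 in basal KO, and 9.91, 9.79, 9.40 and 9.33 in TAC WT, against 9.99, 9.74 and 9.86 in basal WT. It fell in KO by 0.43 on the log2 scale (SE 0.149, adjusted p = 0.0334), and in WT it was at -0.26 (SE 0.149, adjusted p = 0.163) with arrays that overlapped.

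Ndufaf8 stabilises Ndufaf5 in human cells. It read 10.24, 10.02, 10.23 and 9.98 in TAC KO, against 10.66, 10.51 and 10.60 in basal KO, and 10.42, 10.45, 10.02 and 10.07 in TAC WT, against 10.73, 10.49 and 10.77 in basal WT. All TAC arrays lay below the basal arrays of their genotype. The fall was -0.47 in KO (SE 0.129, adjusted p = 0.0110) and -0.42 in WT (SE 0.129, adjusted p = 0.0158), and both of its probe sets passed in both genotypes.

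Ndufaf5, which hydroxylates an arginine of Ndufs7 in human cells, did not pass. It read 8.47, 8.67, 8.55 and 8.29 in TAC KO, against 8.61, 8.46 and 8.40 in basal KO, and 8.99, 8.87, 8.67 and 8.73 in TAC WT, against 8.78, 8.27 and 8.50 in basal WT. Its difference was 0.01 in KO (adjusted p = 0.979) and 0.30 in WT (adjusted p = 0.0760). Ndufaf1, a scaffold for the membrane arm, showed the same layout, at -0.02 in KO (adjusted p = 0.912) and 0.38 in WT (adjusted p = 0.0652).

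Ndufaf2, a chaperone of the last assembly step, was at -0.23 in KO (adjusted p = 0.113) and -0.01 in WT (adjusted p = 0.955). Ndufaf6 was at 0.32 in KO (adjusted p = 0.229) and 0.24 in WT (adjusted p = 0.361), with wide basal spreads of 0.23 in KO and 0.46 in WT (SD, n = 3 each). Ndufaf7, an arginine methyltransferase, was at 0.0025 in KO (adjusted p = 0.985) and 0.13 in WT (adjusted p = 0.267). These 3 factors showed no difference past the threshold in either genotype.

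**Figure D5:**
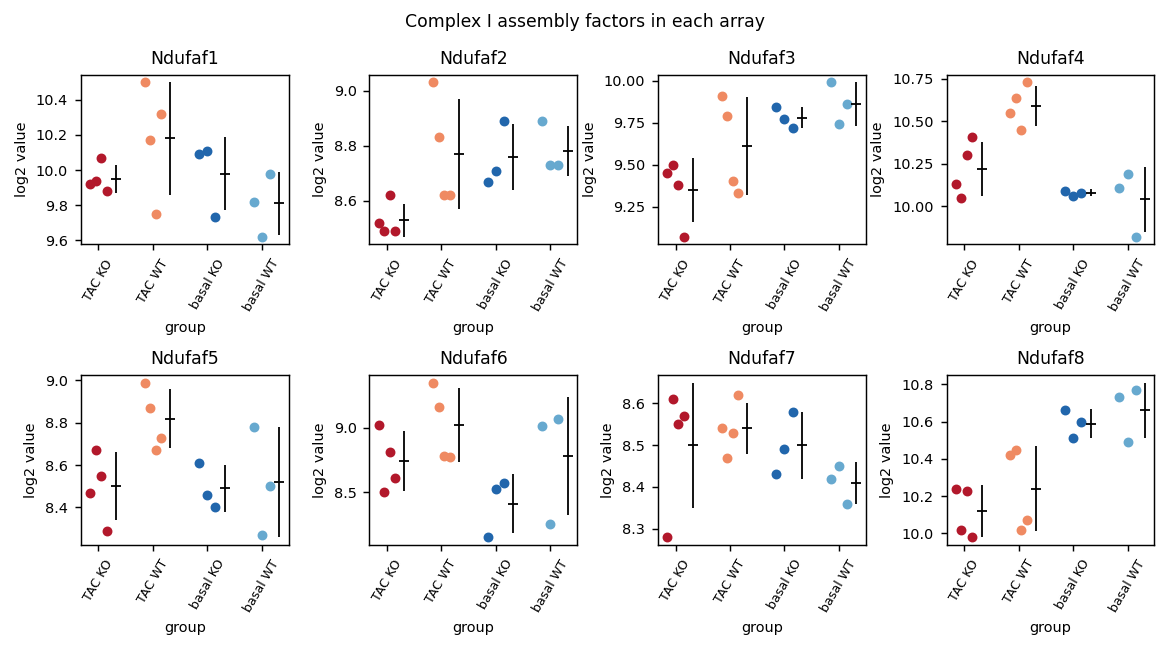
Deposited log2 values (y axis) of the 8 assembly factors in each array, by group, with the mean and SD of the group beside the points. The 4 TAC WT points of Ndufaf4 lie between 10.45 and 10.73, above all other points of the gene, and the TAC points of Ndufaf8 lie between 9.98 and 10.45, below the basal points.

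Set side by side, the TAC differences of KO and WT pointed the same way in 39 of 43 Nduf genes. Both lay below 0 in 33 of the 43, against 43.3% of all genes. The genes lower in both were 10 of the 17 that fell in KO and 10 of the 10 that fell in WT: Ndufa10, Ndufa4l2, Ndufa7, Ndufaf8, Ndufb2, Ndufb7, Ndufs7, Ndufs8, Ndufv1 and Ndufv3. The matching shares of all genes, for the same sign and for calls in both, were not counted. The difference was more negative in KO for 36 of the 43 genes (29 subunits and 7 assembly factors), where 54.4% of all genes were. Across the 43 genes the differences correlated with a Pearson r of 0.90, as a description over genes read on shared arrays, and over all genes r was 0.89. Whether KO and WT differ in their response is asked directly by the difference of the KO effects, for which 0 of the 43 Nduf genes passed and 1 had an unadjusted p under 0.05, where 0.0% of all genes passed and 952 of 12260 had such a p (limma). That gene was Ndufaf4, at -0.41 (95% interval -0.76 to -0.05, adjusted p = 0.598 in limma).

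Between the genotypes themselves no Nduf gene passed. After TAC, 0 of 43 differed between TAC KO and TAC WT at the adjusted threshold, where 0.00816% of all genes did (1 of 12260). An unadjusted p under 0.05 was found for 4 of the 43, against 998 of 12260 genes (limma). With array weights, 19 passed, 1 higher and 18 lower, among 2880 of all genes. The median subunit difference was -0.102, against -0.018 over all genes, with 33 of 35 below 0. The 8 assembly factors all lay below 0, with a median of -0.251. Of all 12260 genes, 6579 lay below 0. Subunits moved together within arrays, so 33 of 35 does not count independent results. Leaving out single arrays kept the count at 0 and moved the subunit median between -0.224 and -0.018, the value without TAC WT 3 lying farthest from 0 and that without TAC WT 1 nearest.

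Ndufaf4 had the smallest p of the family in this comparison, at -0.37 (95% interval -0.60 to -0.14, unadjusted p = 0.00445, adjusted p = 0.374 in limma), and its 4 TAC KO arrays all read below its 4 TAC WT arrays, which held for 1 assembly factor and 0 subunits, against 2.30% of all genes. Ndufaf5 was at -0.32 (95% interval -0.59 to -0.05, adjusted p = 0.527) and Ndufaf2 at -0.25 (95% interval -0.47 to -0.02, adjusted p = 0.583). Ndufa4l2 was the member on the other side, at 0.30 (95% interval 0.03 to 0.57, adjusted p = 0.583), with every TAC KO array above every TAC WT array, against 1.69% of all genes. None of these 4 genes passed the adjusted threshold.

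In basal hearts 0 of 43 Nduf genes differed between KO and WT, as did 0.0% of all genes, and 0 had an unadjusted p under 0.05, against 707 of 12260 genes (limma). Subunit differences had a median of -0.02, against 0.013 over all genes. The smallest p-values belonged to Ndufaf6, at -0.36 (95% interval -0.85 to 0.13, adjusted p = 0.969), Ndufaf1, at 0.17 (95% interval -0.20 to 0.54), and Ndufa12, at 0.13 (95% interval -0.18 to 0.44). In 2 subunits (5.71%) every basal KO array read below every basal WT array, against 6.13% of all genes, and in 0 every one read above, against 7.46%. The median subunit difference changed sign when single arrays were left out, between -0.04 and 0.007.

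Other genes of the pathway were read from lists drawn up with results of these data known. Of 14 measured complex I assembly factors outside the Nduf names, 6 fell (42.9%, against 21.8% of all genes) and 0 rose in TAC KO against basal KO, and 4 fell (28.6%, against 23.8%, close to it) and 0 rose in TAC WT against basal WT. Ecsit, a partner of Ndufaf1 in the membrane arm scaffold, fell by 0.76 in KO (adjusted p = 0.00161) and fell by 0.59 in WT (adjusted p = 0.00503) on the log2 scale. Foxred1 fell by 0.70 in KO and 0.64 in WT, and Dmac2 by 0.99 in KO and 0.76 in WT. Acad9, the other partner in that scaffold, Nubpl, which delivers iron-sulphur clusters, and Tmem126b fell in KO by 0.43, 0.40 and 0.44, and were at -0.20, -0.26 and -0.12 in WT. Pyurf fell in WT by 0.57 and was at -0.17 in KO.

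ND5, a proton-pumping core subunit of the membrane arm that is encoded in mitochondrial DNA, was the one such gene measured. It was at 0.06 in KO (adjusted p = 0.602) and 0.21 in WT (adjusted p = 0.0758), so the nuclear-coded core subunits and this mitochondrially coded one lay on opposite sides of 0, a contrast between genes that was not tested.

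Subunits of complexes II to V passed as lower at shares close to those of all genes, though most lay below 0. Of 44 measured, 12 fell and 1 rose in TAC KO against basal KO (27.3% lower, against 21.8% of all genes, median -0.275), and 12 fell and 4 rose in TAC WT against basal WT (27.3% lower, against 23.8%, median -0.255). Below 0 lay 38 of the 44 in KO and 39 in WT, against 6277 and 5988 of all 12260 genes. In 25 (56.8%) every TAC KO array read below every basal KO array, against 26.7% of all genes, and in 1 above. In 16 (36.4%) every TAC WT array read below every basal WT array, against 24.3% of all genes, and in 3 above. The difference from the 42.9% of Nduf subunits in KO, or 42.4% without Ndufa4 and Ndufa4l2, was not tested. Their median shift was -0.15, -0.32, -0.26 and -0.45 in TAC KO 1 to 4 and -0.05, -0.10, -0.59 and -0.30 in TAC WT 1 to 4. The order of the arrays was that seen for complex I.

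Among regulators of mitochondrial genes, 18 were measured. Of these 6 fell (33.3%, against 21.8% of all genes) and 4 rose (22.2%, against 22.7%) in TAC KO against basal KO, and 3 fell (16.7%, against 23.8%) and 5 rose (27.8%, against 26.9%) in TAC WT against basal WT, shares not far from those of genes at large. Ppargc1a, the coactivator PGC-1 alpha, fell by 1.69 in KO (adjusted p = 0.00806) and fell by 2.24 in WT (adjusted p = 0.00137) on the log2 scale. Esrra, the nuclear receptor ERR alpha that it works with, fell by 0.64 in KO (adjusted p = 0.000926) and fell by 0.46 in WT (adjusted p = 0.00438). Yy1, a transcription factor with many targets among mitochondrial genes, rose by 0.70 in KO (adjusted p = 0.0152) and by 1.06 in WT (adjusted p = 0.00136). Nrf1 was at -0.27 in KO and -0.30 in WT and passed in neither.

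Promoters were searched for the letters that these regulators are known to bind, in windows of 250 bases before to 50 bases after each start that RefSeq's promoter table lists (GRCm38.p6). For Ndufs7 that start lies inside the annotated gene, downstream of its first base. Of the 43 measured genes 38 had such a promoter, 40 in all. The YY1 letters AAGATGGC, on either strand, stood in 7 of the 40 (17.5%), against 2.75% of all 32851 promoters and 4.22% of those of measured genes. Those promoters belong to Ndufa3, Ndufa9, Ndufaf8, Ndufb8, Ndufc1, Ndufs4 and Ndufs7, and the letters began between 10 and 38 bases after the start base. They include ATG, and whether they overlap a start codon was not tested. The ERR alpha letters AAGGTCA stood in 2 (5.0%, against 4.72% of all and 3.18% of those of measured genes), those of NRF1, CGCATGCG, in 3 (7.5%, against 1.87% and 3.55%), and those of GABPA, CCGGAAGT, in 1 (2.5%, against 3.89% and 7.31%). Only 1 of the 3 with the NRF1 letters was among the 33 subunit promoters (3.03%). The NRF1 letters read the same on both strands, and no pair of these motifs holds another. Among promoters of Nduf genes that fell in a TAC comparison, 2 of 16 held the YY1 letters, 2 those of ERR alpha, 1 those of GABPA and 0 those of NRF1. A match describes the sequence and shows no binding. Shown are Ndufs7, which fell in both genotypes and holds the YY1 letters, and Ndufb2, which fell in both and holds those of ERR alpha. Also shown are Ndufv3, with the largest fall on the probe sets that stand for genes and none of the 4 motifs, and Ndufaf4, which rose in WT and holds the NRF1 letters. Capitals mark the motif.
Ndufs7, chr10:80249199-80249498 (+ strand): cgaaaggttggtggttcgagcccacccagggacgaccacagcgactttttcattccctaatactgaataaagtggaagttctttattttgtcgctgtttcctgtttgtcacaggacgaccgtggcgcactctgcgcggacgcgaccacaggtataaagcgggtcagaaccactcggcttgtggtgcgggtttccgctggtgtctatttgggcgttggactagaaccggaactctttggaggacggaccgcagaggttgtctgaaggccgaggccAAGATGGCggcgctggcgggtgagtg
Ndufb2, chr6:39592315-39592614 (+ strand): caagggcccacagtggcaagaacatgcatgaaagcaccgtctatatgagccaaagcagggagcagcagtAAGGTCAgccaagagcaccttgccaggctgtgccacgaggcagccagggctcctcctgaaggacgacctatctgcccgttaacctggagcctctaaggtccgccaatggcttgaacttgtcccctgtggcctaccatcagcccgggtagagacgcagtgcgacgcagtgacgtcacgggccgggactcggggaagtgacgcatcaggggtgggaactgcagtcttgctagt
Ndufv3, chr17:31519865-31520164 (+ strand): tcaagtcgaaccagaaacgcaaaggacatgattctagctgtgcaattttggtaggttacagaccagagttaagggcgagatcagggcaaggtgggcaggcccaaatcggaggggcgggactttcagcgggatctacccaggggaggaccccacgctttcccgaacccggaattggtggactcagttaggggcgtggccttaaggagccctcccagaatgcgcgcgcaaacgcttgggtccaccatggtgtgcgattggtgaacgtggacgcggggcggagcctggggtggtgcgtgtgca
Ndufaf4, chr4:24897833-24898132 (+ strand): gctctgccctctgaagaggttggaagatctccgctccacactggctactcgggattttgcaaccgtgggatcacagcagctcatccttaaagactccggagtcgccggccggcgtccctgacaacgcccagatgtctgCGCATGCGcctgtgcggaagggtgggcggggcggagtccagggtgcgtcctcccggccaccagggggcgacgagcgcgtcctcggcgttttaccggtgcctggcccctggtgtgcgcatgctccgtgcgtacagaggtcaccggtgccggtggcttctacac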

How the data were processed

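Left ventricular RNA of 14 samples was read on Affymetrix Mouse430_2 arrays with 45101 probe sets. The values deposited are on the log2 scale, a value for each probe set, and the authors made them with RMA, per the submitters' processing notes. The sources used here give neither its version nor whether arrays were normalized as a single set. Groups were taken from the sample titles. Raw intensities were not used.

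Probe sets were named from the platform annotation: 34958 had a single symbol, 932 several and 9211 none, and those with several or none were left out. A probe set was kept if its value was above 5.75 (the table's median) in 3 or more arrays, which left 21216 with a single symbol. The brightest kept probe set by mean stood for its gene, which gave 12260 genes. R 4.3.3 with limma 3.58.1 fitted the means of the 4 groups to all 14 arrays (10 residual and 3.43 prior degrees of freedom), followed by eBayes. Each gene thus has a single spread for all groups, so its SE does not follow the spread of the groups compared. Spreads did differ between groups. For Ndufs7 the SD was 0.17 in TAC KO, 0.34 in TAC WT, 0.03 in basal KO and 0.07 in basal WT. P-values were Benjamini-Hochberg adjusted over all genes, with a threshold of 0.05, and for tests of every probe set over all 21216. SE is that of the model and ± the SD between arrays. The fit was tested on simulated data. Level comparisons were made within a probe set. The shift of a list in an array is the median over its genes of the value minus the basal WT mean.

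Named genes were, by rule, the 10 Nduf genes with the smallest p in each TAC comparison, the 3 with the smallest p where none passed, all assembly factors, core subunits, Ndufa4 and Ndufa4l2, members whose probe sets disagree in sign, and genes of the regulator and assembly lists. The members and the gene lists were chosen with earlier results of these data known. Replicate numbers were not treated as pairs. The deviations of arrays with the same number correlated between -0.161 and 0.594, and those with different numbers between -0.579 and 0.576. These ranges do not settle whether the numbers pair the arrays. Alternatives were other filters, summaries of probe sets, scalings, fits, array weights, a block for the replicate number, and leaving out each array.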

Additional observations from a re-analysis of the deposited data

Results flagged for a closer look

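The arrays of each group of 4 were searched for an array far from the other 3, by the gap to its neighbour over the range of the group, in 86 groups. Chance gives such a mark in about 1 of 20 groups, and 2 were found. Ndufa4l2 read 9.19 in TAC KO 3, where the other TAC KO arrays lay between 8.79 and 8.83, with a gap of 0.90 of the range. Ndufv1 read 13.19 in TAC KO 1, where the others lay between 12.81 and 12.86, with a gap of 0.868 of the range.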

How the results depend on the processing

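The number of Nduf genes past the threshold in TAC KO against basal KO, 17, was 32 (1 higher, 31 lower, of 82) with every probe set tested and 27 (2 higher, 25 lower) with array weights. There 9368 of all 21216 probe sets passed, and 7075 of all 12260 genes, against 5451 genes in the main fit. When only the arrays compared were fitted, 22 Nduf genes passed in KO (0 higher, 22 lower), among 6113 of all genes. The number of Nduf genes in KO ran from 4 to 25 with single arrays left out, being 4, 7 and 5 without basal KO 1, 2 and 3, and 10, 11 and 5 without TAC KO 2, 3 and 4. At those ends, 4091 and 6133 of all genes passed. The number in TAC WT against basal WT, 12, was 31 (5 higher, 26 lower, of 82) with every probe set and 3 (1 higher, 2 lower) when only the arrays compared were fitted. There 10703 of all probe sets passed, and 4831 of all genes, against 6214 genes in the main fit. The number of Nduf genes in WT ran from 5 to 22 with single arrays left out, being 5 without basal WT 3, 6 without TAC WT 4 and 22 without TAC WT 1. At those ends, 5042 and 6842 of all genes passed. With array weights, 19 Nduf genes passed in TAC KO against TAC WT, against 0 otherwise, among 2880 of all genes. The median subunit difference ran from -0.423 to -0.317 in KO and from -0.367 to -0.15 in WT with single arrays left out, and was -0.10 in WT with array weights. That of TAC KO against TAC WT ran from -0.224 to -0.018, that of basal KO against basal WT from -0.04 to 0.007, and that of the difference of KO effects from -0.198 to 0.017, while the counts stayed at 0.

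The subunit median stayed below 0 in both TAC comparisons under each scaling: -0.427 in KO and -0.332 in WT with quantile normalization (all genes -0.078 and -0.098), and -0.351 in KO and -0.209 in WT with median centring (all genes 0.008 and 0.099). Median centring changed the split in WT to 5 higher and 6 lower, from 2 and 10, and quantile normalization gave 1 and 13. The split was 5 and 6 with array weights, 4 and 4 without basal WT 1, and 4 and 5 without TAC WT 3. The replicate block gave 12 genes in KO and 9 in WT, with subunit medians of -0.34 and -0.23, and 0 in the other comparisons. Ndufb2 turned from a fall to 0.058 in WT (adjusted p = 0.783) without probe sets with an s, x or a suffix, where its dim probe set stood for the gene. Ndufaf4 and Ndufa4l2 in WT, and Ndufaf8, Ndufs7 and Ndufs8 in KO, passed under all 24 alternatives, as did Ndufv3 in KO under the 23 that gave a value. Of the 24, 14 lost the call of Ndufs8 in WT, 14 that of Ndufa4l2 in KO, 11 that of Ndufc2 in WT, 9 that of Ndufs7 in WT, and 15 that of Ndufb2 in WT. The cause of each change was not tested. The number of arrays, and signals near the top of the scale, limit what can be seen.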

Other observations

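Probe sets that carry several symbols were kept out of the comparisons and are given here as levels, with no test. The probe set of Ndufs6 and Ndufs6b, subunits of the matrix arm near the NADH module, averaged 11.98 ± 0.23 in TAC KO and 12.09 ± 0.40 in TAC WT (SD, n = 4 each), and 12.47 ± 0.10 in basal KO and 12.61 ± 0.15 in basal WT (SD, n = 3 each). The brighter of those shared by Ndufb4, Ndufb4b and Ndufb4c averaged 12.45 ± 0.16 in TAC KO and 12.55 ± 0.31 in TAC WT, and 12.73 ± 0.07 in basal KO and 12.83 ± 0.06 in basal WT. The brighter of those shared by Ndufa11 and Ndufa11b averaged 12.86 ± 0.11 in TAC KO and 12.88 ± 0.32 in TAC WT, and 13.17 ± 0.05 in basal KO and 13.21 ± 0.09 in basal WT. The probe set of Ndufab1 and its pseudogene ran the other way, with 12.59 ± 0.20 in TAC KO and 12.65 ± 0.28 in TAC WT, and 12.48 ± 0.06 in basal KO and 12.49 ± 0.10 in basal WT. Which of its symbols such a probe set reads cannot be told apart.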
